A study of Homo sapiens with 4 samples.

Results

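Histone genes were followed across 4 expression arrays of 2 lymphoma cell lines. A gene was included when the only gene symbol that the array annotation gave a probe set belonged to a linker histone H1 gene, to an H2A, H2B, H3 or H4 gene named as a member of the histone clusters, or to a replacement variant of the H2AZ, H2AX, H2AJ, macroH2A or H3-3 kind. This took in 57 genes on 81 probe sets, out of 19775 named genes and 54675 probe sets on the array. Of the 57 genes 53 code for proteins, 3 are pseudogenes (H1-9P, H2AC5P and H4C10P) and 1 is a non-coding RNA (H1-10-AS1). 42 of them lie on chromosome 6.

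The study set interleukin-32γ (IL-32γ), an isoform of a cytokine made by lymphocytes and other cells, against untreated culture in MyLa, labelled a mycosis fungoides line, and HH, labelled a cutaneous T-cell lymphoma line. All 4 cultures were kept for 40 hours in 0.1% serum, and the treated culture of each line received IL-32γ at 5 ng/ml. The groups were therefore MyLa control, MyLa with IL-32γ, HH control and HH with IL-32γ, each represented by 1 array of total RNA. Each line is a single established line, and nothing in the labels names separate cultures of 1 condition, so p-values measure only the spread between these arrays.

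Histones are the proteins around which DNA is wound. H2A, H2B, H3 and H4 form the core particle and H1 binds the linker DNA between particles. Genes of the clusters are switched on as DNA is copied in S phase, and most of their mRNAs end in a stem loop in place of a poly(A) tail, whereas replacement variants are made throughout the cell cycle from polyadenylated mRNAs. The priming step of the labelling is not given in the sources used here, and how fully the arrays captured mRNAs without a tail was not tested.

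The promoters below belong to the genes whose values are described most closely: the linker genes H1-1 and H1-3, which were at least 1.5-fold higher with IL-32γ in MyLa, and H3C3, H2BC9 and H2AJ, which were higher in HH than in MyLa. Each line is the 250 bases before the transcription start, 5′ to 3′ on the gene's own strand, from RefSeq's table of assembly GRCh38.p14. H1-1 is chr6:26017788-26018037 on the minus strand, H1-3 is chr6:26234988-26235237 on the minus strand, H3C3 is chr6:26045134-26045383 on the plus strand, H2BC9 is chr6:26251364-26251613 on the plus strand and H2AJ is chr12:14774155-14774404 on the plus strand. Capitals mark matches to the 4 motifs searched for on both strands: TATAAA for the TATA box, CCAAT for the box of that name, ATTTGCAT for the octamer bound by POU factors such as OCT1, and AAACACA for the AC box of H1 genes.
H1-1: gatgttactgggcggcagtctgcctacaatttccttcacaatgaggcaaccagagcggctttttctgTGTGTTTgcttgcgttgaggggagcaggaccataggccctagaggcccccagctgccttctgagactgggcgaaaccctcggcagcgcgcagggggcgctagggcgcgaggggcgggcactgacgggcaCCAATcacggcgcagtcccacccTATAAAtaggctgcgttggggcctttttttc
H1-3: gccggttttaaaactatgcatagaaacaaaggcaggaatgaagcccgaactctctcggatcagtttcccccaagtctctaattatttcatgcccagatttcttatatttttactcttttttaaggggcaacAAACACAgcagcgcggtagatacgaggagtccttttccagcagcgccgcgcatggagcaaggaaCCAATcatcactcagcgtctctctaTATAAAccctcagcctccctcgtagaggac
H3C3: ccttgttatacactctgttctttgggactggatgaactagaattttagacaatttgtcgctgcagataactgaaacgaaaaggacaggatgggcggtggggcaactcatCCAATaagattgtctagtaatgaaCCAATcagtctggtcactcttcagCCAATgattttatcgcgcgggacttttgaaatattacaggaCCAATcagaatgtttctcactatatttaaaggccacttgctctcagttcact
H2BC9: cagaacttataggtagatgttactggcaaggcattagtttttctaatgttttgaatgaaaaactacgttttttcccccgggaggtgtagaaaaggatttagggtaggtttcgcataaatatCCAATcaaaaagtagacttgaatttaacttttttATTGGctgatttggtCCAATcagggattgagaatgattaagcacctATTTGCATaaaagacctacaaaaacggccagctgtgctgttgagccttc
H2AJ: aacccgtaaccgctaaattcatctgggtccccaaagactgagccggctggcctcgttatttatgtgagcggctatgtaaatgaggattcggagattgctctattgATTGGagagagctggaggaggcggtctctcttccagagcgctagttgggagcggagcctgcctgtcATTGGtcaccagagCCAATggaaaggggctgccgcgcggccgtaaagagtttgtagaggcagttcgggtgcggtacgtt

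H1-1 and H1-3 each held an AC box, a CCAAT box and a TATA box in that order towards the start. In H1-3 the AC box began 119 bases, the CCAAT box 55 bases and the TATA box 30 bases before the start. In H1-1 the CCAAT box began 54 bases and the TATA box 31 bases before the start, with the AC box farther out at 183 bases and on the other strand. H3C3 held 4 CCAAT boxes on its own strand and no TATAAA. H2BC9 held 3 CCAAT boxes and an octamer that began 49 bases before the start. H2AJ, a replacement gene on chromosome 12, held 3 CCAAT boxes and none of the other motifs.

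Promoter entries were found for 50 of the 57 genes, 58 entries in all, and were set beside all 35116 entries of the same table over the same length. A CCAAT box stood in 82.8% of the histone entries and in 32.0% of all entries, and a TATAAA stood in 55.2% against 10.7%. Among genes of the clusters the CCAAT box was in 8 of 8 entries of H2A, 15 of 15 of H2B, 7 of 7 of H3 and 6 of 6 of H1, but in 2 of 7 of H4. The octamer followed the class: it was in 6 of 8 H2A entries and 11 of 15 H2B entries, in 0 of the entries of every other histone class, and in 1.63% of all entries. These entries are not independent, since matches on either strand were counted. H2AC14 and H2BC14, H2AC17 and H2BC17, and H2AC6 and H2BC4 have overlapping windows, so a single octamer can count for both classes. H2BC5 and H2BC12 also enter with overlapping entries of their own. The AC box was in 6 of 6 entries of the H1 genes of the clusters, in 0 entries of the core genes of the clusters, and in 4.82% of all entries. No 2 of these motifs overlapped in a histone entry. These are matches of letters, with no measurement of binding.

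**Figure D1:**
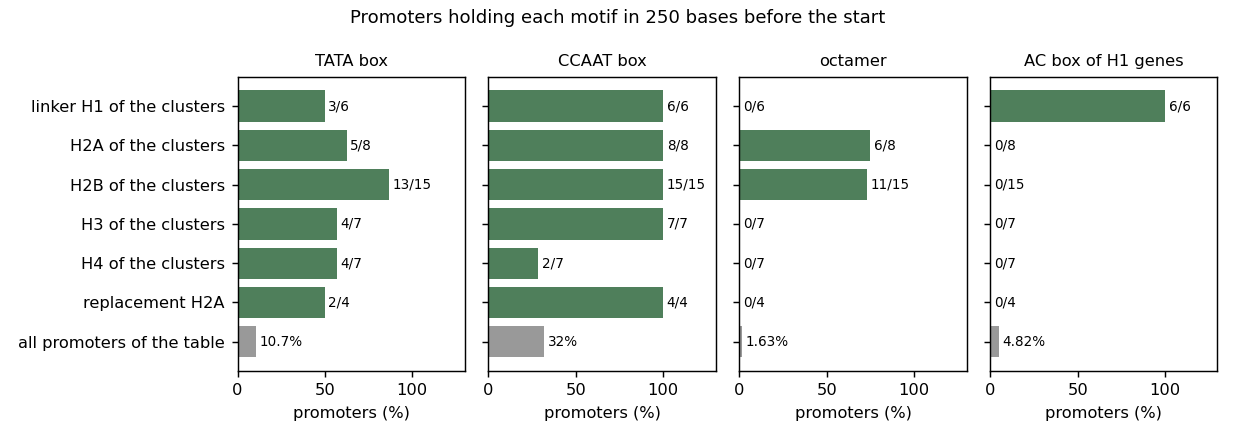
Share of promoter entries (percent, x axis) with a match to each of 4 motifs in the 250 bases before the start, by histone class (green, with the number of entries) and for all 35116 entries of the table (grey). The octamer bars appear for H2A and H2B alone and the AC box bar of the H1 genes of the clusters reaches 6 of 6.

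On each array 42.9% to 43.3% of probe sets lay at 5 or more on the deposited log2 scale, and 5 was used as the floor of measurement. Of 11 T cell marker genes, 5 were measured in MyLa (CD3D, CD3G, CD247, CD2 and PTPRC) and 8 in HH. CD3E, CD4 and CD5 were below 5 in MyLa, and CD7, LCK and TRAT1 were below 5 in both lines. The summed log2 level of this list was 66.3 and 66.5 on the MyLa arrays and 102 on both HH arrays. No marker of B cells, keratinocytes or NK cells was measured, 1 myeloid gene (ITGAM) was measured in MyLa, and the fibroblast gene COL1A1 was measured on 3 arrays, at 11.30 and 10.82 in MyLa and at 5.66 in HH with IL-32γ. The array's control for the 5′ end of beta-actin read 10.12 in MyLa control, 11.81 in MyLa with IL-32γ, 12.69 in HH control and 13.58 in HH with IL-32γ, while its control for the 3′ end lay between 15.07 and 15.27. The 5′ control of beta-actin was thus higher in HH than in MyLa and higher with IL-32γ than without. The array's control for the 5′ end of GAPDH read 14.06 and 14.75 in MyLa and 14.73 and 14.88 in HH, so its values in the lines overlapped. The part of these controls in any histone difference was not tested.

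Of the 57 histone genes, 28 reached 5 on at least 1 array and 29 stayed below 5 on all 4. Of the 28 genes, 23 were measured on all 4 arrays. H2AC15, H2AC17, H3C3 and H3C6 were measured in HH alone, and H1-1 was measured on the array of MyLa with IL-32γ alone. The classes differed in how many members were seen: 8 of 14 H2B genes (counting H2BC12L, which carries a cluster name but lies on chromosome 21) and 6 of 9 H2A genes of the clusters were measured, against 2 of 7 H3 genes, 2 of 9 H4 genes and 3 of 6 H1 genes. All 4 replacement H2A genes were measured, as was H3-3A. The linker genes H1-7, H1-8 and H1-9P and the antisense RNA H1-10-AS1 were below 5 on every array. Cluster genes resemble each other closely, and 14 of the 28 measured genes stand on a probe set whose name marks it as able to match several transcripts, so that signal may be shared between copies. A further 28 probe sets name several histone genes at once, belong to no single gene and are given separately.

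**Figure D2:**
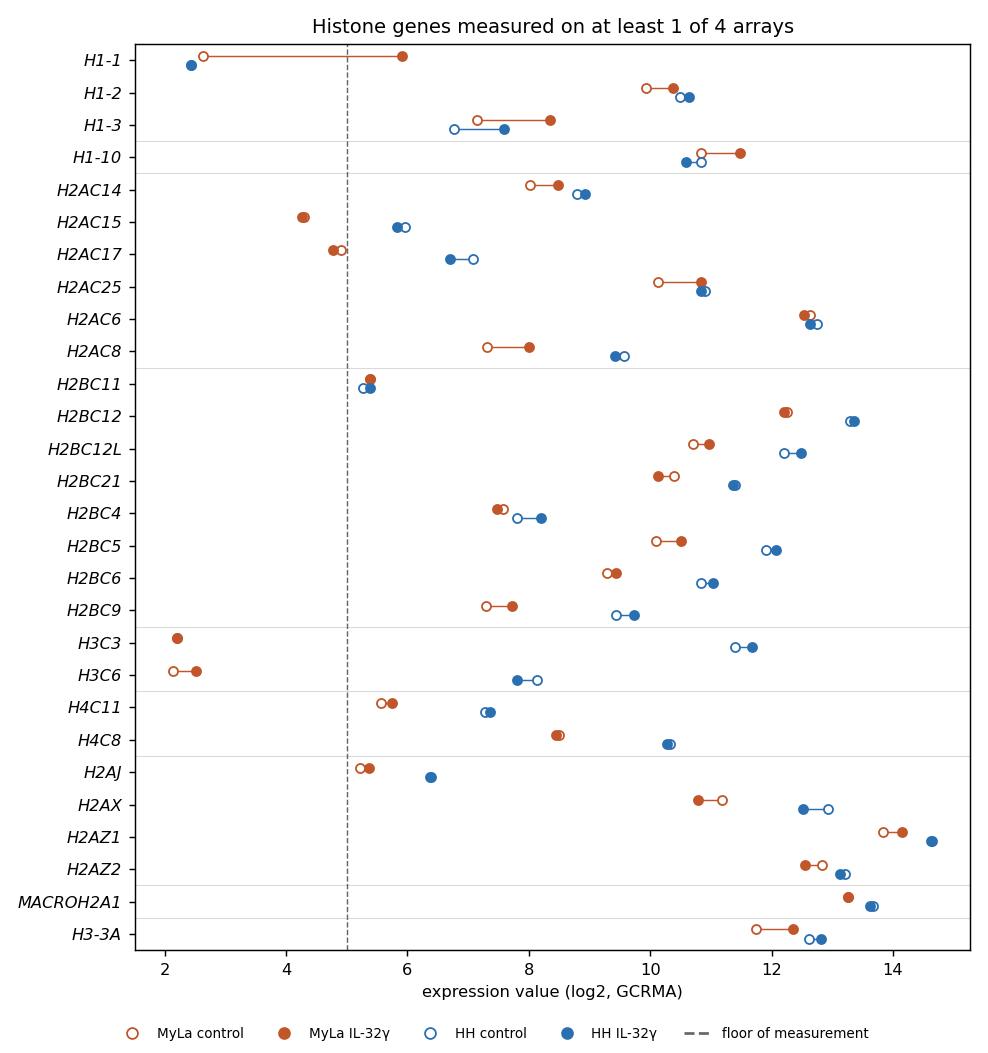
Deposited log2 expression values (x axis) of the 28 histone genes that reached 5 on at least 1 array, ordered by class, with MyLa in orange and HH in blue, open circles for control and filled circles for IL-32γ, 1 array each. H3C3 lies near 2.20 on both MyLa arrays and above 11 on both HH arrays, and H1-1 crosses the dashed floor in MyLa with IL-32γ alone.

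The comparison of the lines asked which histone genes stood at different levels in HH and in MyLa, counting the control and the treated array of each line as its replicates, so that their spread holds the IL-32γ difference too. Of 27 histone genes tested, 14 were higher in HH by at least 2-fold with an adjusted p under 0.05 (limma, Benjamini-Hochberg over all genes), where 16.8% of the 11010 genes tested were. None of the 27 was called lower in HH, against 18.7% of all genes tested. The median difference, HH minus MyLa, was 1.10 on the log2 scale over the 27 genes and -0.03 over all genes. A gene measured in HH alone could only be higher there, so the 23 genes on all 4 arrays were also taken by themselves: 11 were called higher in HH (12.9% of all genes so measured) and 0 lower (14% of all genes so measured), with a median of 0.67 against -0.01. In 19 of the 23 both HH arrays lay above both MyLa arrays, as for 39.8% of all genes so measured, and in 1, H2BC11, both MyLa arrays lay above both HH arrays, as for 40.2% of all genes so measured. In bulk RNA a smaller share of cells that express a gene and less RNA per cell cannot be told apart.

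The widest gap was in H3. H3C3, which encodes the replication-dependent form H3.1, read 2.20 on both MyLa arrays, 11.40 in HH control and 11.67 in HH with IL-32γ. Both HH arrays thus stood far above the floor and both MyLa arrays near the bottom of the scale. The level in HH was at least 92.7-fold higher, a log2 difference of at least 6.53 (SE 0.13, adjusted p = 7.14e-05, limma). H3C6, another H3.1 gene, read 2.13 and 2.52 in MyLa against 8.13 in HH control and 7.80 in HH with IL-32γ. Its difference was at least 2.96 (SE 0.15, adjusted p = 0.000609, limma), and its other probe set was at 2.13 on all 4 arrays. For genes below the floor in MyLa the spread there is 0 by construction, which makes the standard error and p too small. The other 5 H3 genes of the clusters were below 5 on every array.

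H3C3 lies between the pseudogene H2AC5P and H1-2 in RefSeq's order. H2AC5P stayed at 2.13 on every array, and H1-2 read 9.93 and 10.38 in MyLa and 10.50 and 10.64 in HH, a difference of 0.41 (SE 0.19) that was not called (adjusted p = 0.144, limma). A probe set that names 10 H3 genes together, H3C3 and H3C6 among them, read 9.32 and 8.56 in MyLa and 8.88 and 8.36 in HH, so its values in the lines overlapped. The other probe sets of these genes differed from it: 1 naming the same 10 genes and H2AC7 read 3.19 and 4.76 in MyLa and 5.69 and 5.43 in HH, below the floor in MyLa alone, and 1 naming the 10 genes was near 2.13 on every array. The probe sets of several H3 genes thus gave no single order of the lines.

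H2B was the class with the most calls, 6 of 8 genes tested. Of the 6, all but H2BC12 stand on a probe set marked as able to match several transcripts. Their signals may therefore be shared between copies, and the 6 calls may not be separate. H2BC9 read 7.29 in MyLa control, 7.73 in MyLa with IL-32γ, 9.44 in HH control and 9.73 in HH with IL-32γ. The HH arrays were both above the MyLa arrays, by 2.08 on the log2 scale (SE 0.21, 4.22-fold, adjusted p = 0.00361, limma). H2BC5 read 10.09 and 10.51 in MyLa and 11.92 and 12.07 in HH, a difference of 1.70. H2BC6 read 9.28 and 9.43 against 10.84 and 11.03, a difference of 1.58. H2BC12L, a copy on chromosome 21 away from the clusters, read 10.70 and 10.97 against 12.21 and 12.49, a difference of 1.51. These genes are listed because they were called higher in HH, so their shared order adds no support. H2BC12 read 12.25 and 12.21 against 13.29 and 13.36, a difference of 1.10, and H2BC21, which lies on chromosome 1, read 10.39 and 10.13 against 11.40 and 11.36, a difference of 1.11. Adjusted p of these 5 genes ran from 0.00189 for H2BC6 to 0.00508 for H2BC21 (limma). H2BC4 and H2BC11 were not called: H2BC4 read 7.57 and 7.48 in MyLa against 7.80 and 8.20 in HH, and H2BC11 stood near the floor on all 4 arrays, between 5.27 and 5.39. The remaining 6 H2B genes were below 5 everywhere.

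Both measured H4 genes were called. H4C8 read 8.51 and 8.44 in MyLa and 10.33 and 10.28 in HH, a difference of 1.83 (SE 0.10, 3.56-fold, adjusted p = 0.000632, limma). The other probe set of H4C8 was below 5 on all 4 arrays, between 2.87 and 4.75. H4C11 read 5.56 and 5.74 in MyLa and 7.29 and 7.36 in HH, a difference of 1.67 (SE 0.12, adjusted p = 0.00134, limma). It was near the floor in MyLa and stands on a probe set marked as able to match several transcripts. H4C8 and H4C11 encode the same protein, so the array tells such copies apart only through bases that differ between their mRNAs.

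Among H2A genes of the clusters 2 of 6 tested were called. H2AC8 read 7.31 in MyLa control, 8.00 in MyLa with IL-32γ, 9.56 in HH control and 9.42 in HH with IL-32γ, a difference of 1.83 (SE 0.27, adjusted p = 0.00934, limma). H2AC17 read 4.90 and 4.77 in MyLa, just under the floor, and 7.08 and 6.70 in HH, which gives at least 1.89 (adjusted p = 0.00234, limma). H2AC15 was likewise under the floor in MyLa, at 4.29 and 4.27, and read 5.96 and 5.83 in HH, at least 0.89, which fell short of 2-fold. H2AC6, the brightest H2A probe set, read 12.64, 12.54, 12.75 and 12.63 in the order of the groups above, and its difference of 0.10 (SE 0.11) was within the spread of the arrays. H2AC14 and H2AC25 had differences of 0.61 and 0.38 that were not called.

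Of the replacement genes of H2A 2 of 4 tested were called, H2AX and H2AJ. H2AX, the variant phosphorylated at DNA breaks, read 11.18 and 10.80 in MyLa and 12.94 and 12.52 in HH, a difference of 1.74 (SE 0.23, 3.34-fold, adjusted p = 0.00659, limma). Another probe set of H2AX read 10.36 and 10.08 against 12.06 and 11.67, and the remaining pair were below 5. H2AJ, a variant of H2A that accumulates in senescent cells, gave unlike sizes on its probe sets. The probe set that stands for it read 5.22 and 5.36 in MyLa and 6.39 and 6.38 in HH, a difference of 1.10 (SE 0.10, adjusted p = 0.00304, limma). Another pair of its probe sets read between 2.14 and 2.19 in MyLa and between 8.70 and 8.87 in HH, differences of at least 3.76 and at least 3.79. The direction was the same on all 4 probe sets of H2AJ. H2AZ1 and H2AZ2, the variants placed near transcription starts, had differences of 0.65 (SE 0.15, adjusted p = 0.0276, limma) and 0.47 (SE 0.14, adjusted p = 0.0525, limma), under the 2-fold minimum. H2AZ1 read 13.84 and 14.16 in MyLa and 14.63 and 14.65 in HH, and H2AZ2 read 12.83 and 12.55 in MyLa and 13.21 and 13.12 in HH. A dimmer probe set of H2AZ2 read 10.09 and 10.67 in MyLa and 11.39 and 11.45 in HH. Its difference of 1.04 passed 2-fold (adjusted p = 0.0319, limma on every probe set), while the remaining ones had 0.65 and 0.57. MACROH2A1, an H2A variant with a large additional domain, read 13.27 on both MyLa arrays and 13.67 and 13.62 in HH on its brightest probe set, a difference of 0.38 that was not called, whereas a dimmer probe set had a difference of 2.27. H3-3A, which encodes the replacement form H3.3, read 11.74 and 12.35 in MyLa and 12.61 and 12.82 in HH, and its difference of 0.67 (SE 0.25) was not called. H3.3 is also encoded by H3-3B, which no probe set names alone. On 4 probe sets that name H3-3A and H3-3B with the microRNA MIR4738, both MyLa arrays lay above both HH arrays, for example at 14.40 and 14.54 against 13.67 and 13.87, and at 11.58 and 11.51 against 10.60 and 10.52. On the 4 that name H3-3A and H3-3B with the pseudogene H3P6 the order was the reverse, for example at 13.94 and 13.84 against 14.28 and 14.26. These shared probe sets enter no count of calls and were not tested. MACROH2A2 was below 5 on every array.

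Of the linker genes 0 of 3 tested were called. H1-3 read 7.15 and 8.34 in MyLa and 6.77 and 7.59 in HH, with overlapping lines and a difference of -0.57 (SE 0.54). H1-10, a linker variant outside the clusters on chromosome 3, read 10.84 and 11.48 in MyLa and 10.84 and 10.58 in HH, a difference of -0.45 (SE 0.27). Together with H2BC11, these were the 3 tested genes whose difference was negative, none passed the test, and the sign turned for H1-3 without the MyLa IL-32γ array and for H2BC11 with quantile normalization. H1-2 is given above beside H3C3.

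**Figure D3:**
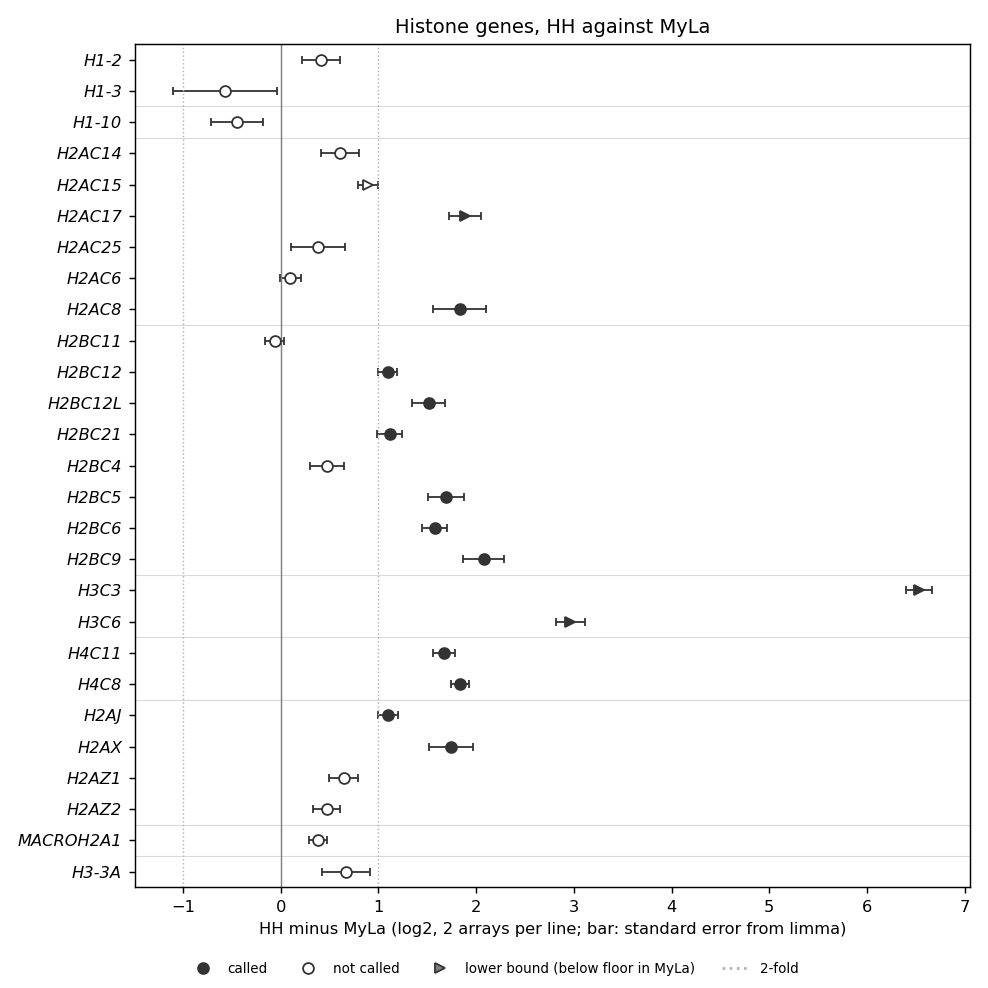
Difference between the lines, HH minus MyLa (log2, x axis), with the standard error from limma for the 27 histone genes tested, 2 arrays per line. Filled symbols mark the 14 genes called, triangles mark lower bounds for genes below the floor in MyLa, and 24 of the 27 genes lie right of 0.

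When an array was left out, its line kept a single array and the spread came from the other line alone. Calls of such fits are therefore not counted, and only the differences are given. The 14 histone genes called in the main fit all differed by more than 2-fold without either HH array. Without a MyLa array the same held but for H2BC21, at 0.99 without MyLa with IL-32γ, just under 2-fold. H2AC8 had 1.76 without HH control and 1.90 without HH with IL-32γ, beside 1.83 in the main fit. H2AX had 1.53 and 1.95 in the same order, beside 1.74. On probe sets not marked as able to match several transcripts, 7 of 16 genes were called, and the share over all genes was not counted there.

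Along chromosome 6 runs of genes called were interleaved with runs of genes that were not. Among measured genes, H3C3, which was called, is followed in order of position by H1-2, H2BC4 and H2AC6, none of them called. Next come H2BC5, H2BC6, H2AC8 and H3C6, all of them called. After these lie H1-3, not called, and then H2BC9 and H4C8, both called. In 4 facing pairs an H2A and an H2B gene start so close together that their 250-base windows overlap: H2AC14 with H2BC14, H2AC15 with H2BC15, H2AC17 with H2BC17 and H2AC6 with H2BC4. The H2A gene was measured on at least 1 array in the first 3 pairs, while H2BC14, H2BC15 and H2BC17 were below 5 on all 4 arrays. H2AC6 and H2BC4 were both measured, and neither was called between the lines. A value below 5 is a bound for that probe set and no proof that the gene is silent.

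**Figure D4:**
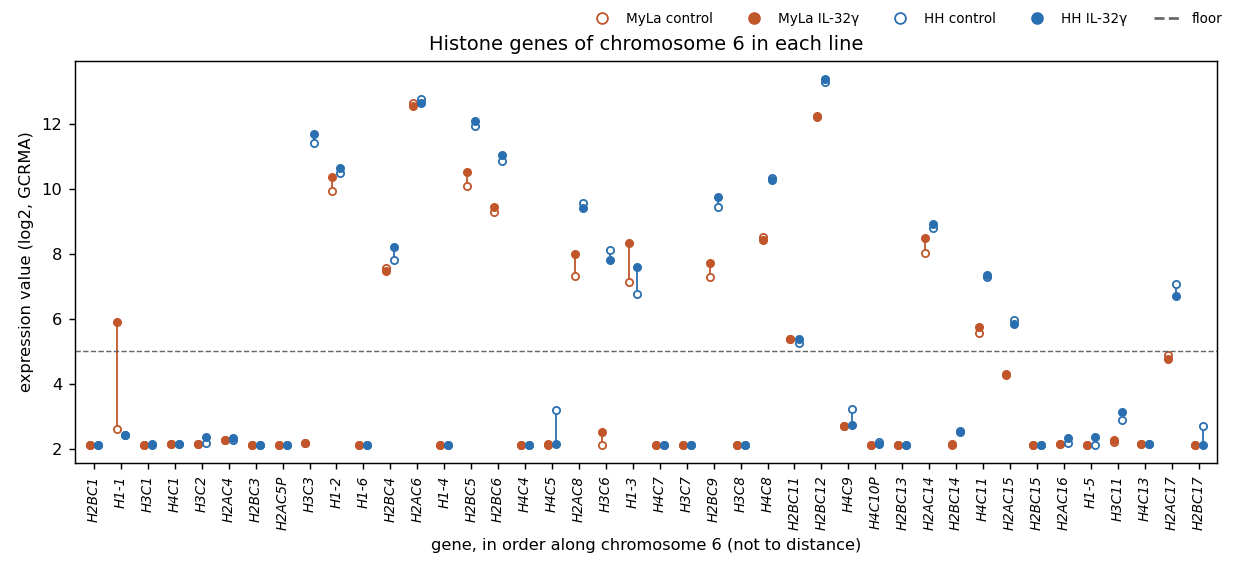
Deposited log2 expression values (y axis) of the 42 histone genes of chromosome 6, in order of position (x axis, not to distance), with MyLa in orange and HH in blue, open circles for control and filled circles for IL-32γ. Genes with blue above orange, such as H3C3 and H2BC9, lie among genes such as H2AC6 whose lines coincide.

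Genes that act on histones were counted beside them. Among 14 genes of histone mRNA processing 0 were higher in HH and 1 was lower: LSM11, a subunit of the U7 particle that cuts histone pre-mRNA, with a difference of -2.18 (SE 0.13, adjusted p = 0.000852, limma). SLBP, which binds the stem loop, and NPAT, which activates histone genes in S phase, had differences of 0.97 and 0.76, below 2-fold. This pair was named for its role, with the values already seen. Over all genes tested 16.8% were called higher and 18.7% lower in HH, as above. Of 27 histone chaperones and exchange factors tested 4 were higher in HH, a share near that of all genes, and 0 lower: HJURP (1.86), the chaperone of the centromeric H3, NASP (1.47), which holds H3 and H4, ASF1B (1.27), which passes H3 and H4 on for assembly, and CABIN1 (1.02), a subunit of the HIRA complex. Of 27 S phase genes 9 were higher in HH and 0 lower, among them CCNE2 (at least 5.68) and CCNE1 (2.02), the cyclins of entry into S phase, CDK2 (2.56), their kinase, and E2F1 (2.29), which activates S phase genes. The median differences of the 3 lists were 0.39, 0.30 and 0.86. The other 18 S phase genes were not called, among them PCNA (0.19) and MCM6 (0.14). The part of the 9 called S phase genes in the histone difference was not tested.

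With IL-32γ, the question was which histone genes differed between the treated and the untreated culture of a line. In MyLa 6 of 24 measured histone genes were 1.5-fold or more higher with IL-32γ (7.77% of all genes measured there) and 0 were lower by that much (7.65% of all genes). H1-1 was measured on the treated array alone and could only be higher; of the 23 genes measured on both MyLa arrays 5 were higher by 1.5-fold or more (7.44% of all genes so measured). In HH 1 of 27 was higher (1.14% of all genes) and 0 were lower (4.46% of all genes). The median difference, IL-32γ minus control, was 0.23 for the histone genes in MyLa and 0.02 in HH, where all genes had -0.07 in both lines. With 1 array per condition there is no replicate and no test within a line. In MyLa 16 histone genes had a positive and 8 a negative difference, and in HH 14 and 13, where 40.7% of all genes in MyLa and 33.9% in HH had a positive one.

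On the probe sets that stand for the genes, the widest differences were in linker H1 genes. H1-3, which encodes the linker histone H1.3, read 7.15 in MyLa control and 8.34 in MyLa with IL-32γ, a difference of 1.20 (2.29-fold), and 6.77 and 7.59 in HH, a difference of 0.82 (1.76-fold). On these probe sets H1-3 was the 1 histone gene at 1.5-fold or more in both lines. A dimmer probe set of MACROH2A1 also passed in both, at 0.62 in MyLa and 0.63 in HH. H1-1 read 2.63 in MyLa control and 5.90 in MyLa with IL-32γ, at least 1.87-fold, and 2.43 on both HH arrays. H1-2 read 9.93 and 10.38 in MyLa and 10.50 and 10.64 in HH, differences of 0.45 and 0.14, below 1.5-fold. The neighbours of H1-3 in RefSeq's order are H2AC9P and H4C6, and those of H1-1 are H3P26 and H3C1, of which H3C1 was below 5 on every array. H1-10, the linker gene outside the clusters, read 10.84 and 11.48 in MyLa and 10.84 and 10.58 in HH, differences of 0.64 and -0.26.

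Among core genes, H2AC25 and H2AC8 passed 1.5-fold in MyLa. H2AC25, an H2A gene on chromosome 1, read 10.14 and 10.84 in MyLa and 10.90 and 10.85 in HH, differences of 0.71 and -0.05. Its other probe set had differences of 1.34 and 0.16. H2AC8 went from 7.31 to 8.00 in MyLa and from 9.56 to 9.42 in HH, differences of 0.69 and -0.14. No H2B gene passed 1.5-fold in either line: the 8 differences ran from -0.26 to 0.43 in MyLa and from -0.04 to 0.40 in HH. The other probe set of H2BC5 had a difference of 1.04 in MyLa and 0.08 in HH. H4C8 and H4C11 had differences between -0.07 and 0.19 over both lines. The HH differences of H3C3 and H3C6 were 0.27 and -0.33.

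Of the replacement genes H3-3A passed 1.5-fold in MyLa, at 11.74 and 12.35, a difference of 0.60 against 0.21 in HH. A set of 3 bright probe sets that name H3-3A, H3-3B and the pseudogene H3P6 had 0.44 to 0.45 in MyLa and 0.22 to 0.28 in HH, below 1.5-fold, and another of the same genes had -0.10 and -0.02. The 4 that name H3-3A and H3-3B with MIR4738 had 0.33, 0.14, 0.02 and -0.06 in MyLa. All of these shared probe sets name H3-3A and H3-3B together, so none gives a difference of H3-3A alone. H2AX was the measured gene with the lowest difference in both lines, at -0.39 in MyLa and -0.41 in HH, and its other bright probe set had -0.28 and -0.39. All of these lay within 1.5-fold. H2AZ1 had 0.32 in MyLa and 0.02 in HH. H2AZ2 had -0.28 and -0.08 on its brightest probe set, but its 4 probe sets ran from -0.62 to 0.58 in MyLa. MACROH2A1 was as uneven: its brightest probe set had -0.0027 and -0.05, while others ran from -1.02 to 0.62 in MyLa and reached 0.69 in HH. For these genes no single difference stands for all probe sets.

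**Figure D5:**
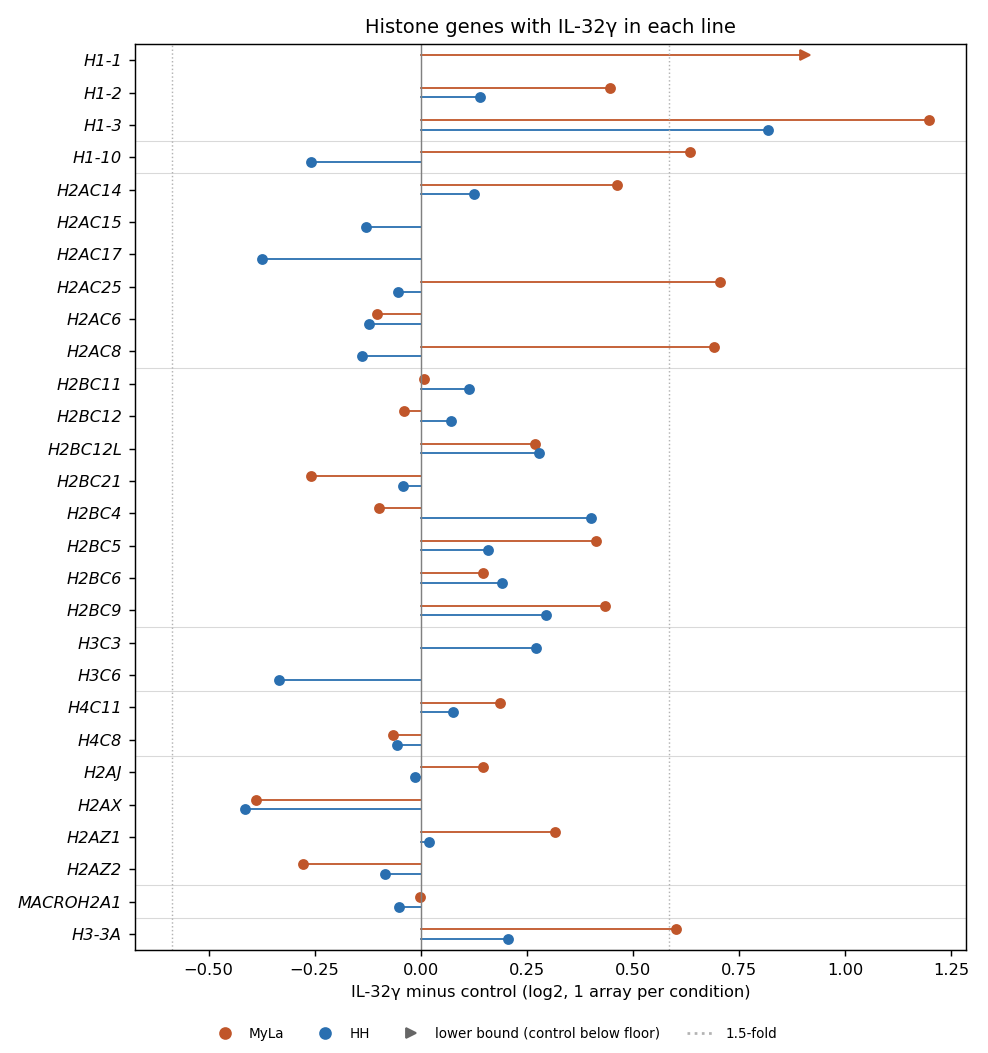
Difference between IL-32γ and control (log2, x axis) for the 28 measured histone genes in MyLa (orange) and HH (blue), 1 array per condition and no error bar, with dotted lines at 1.5-fold and a triangle for a lower bound. In MyLa 6 genes pass the upper dotted line, in HH H1-3 alone does, and H2AX lies left of 0 in both lines.

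Across the lines, limma with the line as a block called 0 histone genes and 0% of all genes tested for IL-32γ. The smallest adjusted p of a histone gene was 0.544, and the fit has 1 residual degree of freedom. Before adjustment, with p under 0.05, 2 histone genes were higher, H1-3 (mean difference 1.01, SE 0.15) and H2BC9 (0.37, SE 0.11), where 1.54% of all genes were higher. At the same threshold 1 was lower, H2AX (-0.40, SE 0.11), where 7.6% of all genes were lower. Of the 23 genes measured on all 4 arrays 15 had a larger difference in MyLa than in HH, as for 49.8% of all genes so measured. That the 5′ control of beta-actin was 1.69 higher with IL-32γ in MyLa and 0.89 higher in HH stands beside these values. For the 5′ control of GAPDH the same differences were 0.68 and 0.15.

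Among the related lists the counts stand beside the 7.77% of all genes higher and 7.65% lower in MyLa. Of 14 genes of histone mRNA processing 1 was 1.5-fold or more higher with IL-32γ in MyLa, UPF1 (1.38), a helicase of mRNA decay that also acts on histone mRNA, and 0 were lower. Of 26 chaperones measured in MyLa 3 were higher, VPS72 (1.07) and ZNHIT1 (0.61), subunits of the complex that inserts H2A.Z, and HIRA (0.83), the chaperone of H3.3, and 2 were lower, IPO4 (-1.09), an importer of histones, and ASF1B (-0.60). In HH 0 of 27 chaperones were higher and 1 was lower, CABIN1 (-0.63). Of 27 S phase genes 3 were higher in MyLa, CDT1 (1.19), CDK2 (1.05) and CCNE2 (at least 0.98), and 3 lower, POLD1 (-1.19), MCM2 (-0.85) and CCNE1 (-0.66). In HH 0 of 27 were higher and 1 was lower, POLD1 (-0.93). The genes of these lists are named because they passed the fold, so they were chosen after their values were seen.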

How the data were processed

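Total RNA from the 2 lines was labelled with biotin and hybridised to 4 arrays, per the labels. The authors deposited log2 expression values per probe set made with GCRMA, per the submitters' processing notes, a method that uses probe sequence to correct background before scaling and summary. Its version is not given in the sources used here, nor is whether the 4 arrays were normalised together. The log2 scale was read from the values (2.13 to 16.0). The number of arrays limits the precision.

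Symbols from the annotation were updated through the Entrez identifier (41043 of 41097 probe sets with 1 symbol matched RefSeq). A gene with several probe sets was represented by the brightest (mean of 4 arrays). Values below 5 were raised to 5 before differences were taken, and a gene measured on 1 side has a bound. Within a line genes at 1.5-fold or more were counted. limma 3.58.1 (R 4.3.3), on genes that reached 5 on 2 or more arrays, compared the lines (2 residual degrees of freedom) and tested IL-32γ with the line as a block (1 residual degree of freedom), with two-sided p-values and Benjamini-Hochberg over 11010 genes. Both fits were tested on simulated data with 50 changed genes per size: at 2-fold 5 were recovered between lines and 1 for IL-32γ, at 4-fold 36 and 38. The simulation changed far fewer genes than were called between the lines, 1847 higher and 2060 lower in HH. A call between lines also needed 2-fold, so a true 2-fold change lay at that limit. The numbers recovered therefore do not measure the sensitivity of the line comparison in these data. Alternatives for the floor, scaling, choice of probe set, fold minimum and left-out arrays are in the closing section.

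The members, the gene lists and the tests were chosen with earlier results of these data known. Values on all arrays were given for members at 1.5-fold with IL-32γ, members called between the lines and the 3 brightest of each class. Of each related list up to 4 genes were named, those called with the widest difference first.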

Additional observations from a re-analysis of the deposited data

Results flagged for a closer look

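Among histone genes measured on all 4 arrays, H2AC25, H2AC8, H1-10, H2AJ, H2BC12 and H2BC4 had IL-32γ differences of opposite sign in MyLa and in HH. The share of all genes with opposite signs was not counted, and the difference between the lines was not tested. The IL-32γ difference in MyLa less that in HH was 0.76 for H2AC25, 0.83 for H2AC8 and 0.89 for H1-10, each at 1.5-fold or more in MyLa. It was 0.16 for H2AJ, -0.11 for H2BC12 and -0.50 for H2BC4, all within 1.5-fold in both lines. Each line has 1 pair of arrays.

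Probe sets that name several histone genes enter no count above, and 21 of 28 reached 5 on at least 1 array. A probe set naming 14 H4 genes read 6.02 in MyLa control and 9.39 in MyLa with IL-32γ, a difference of 3.37, and 10.28 and 10.55 in HH. The other probe sets naming the same 14 genes could not show whether it was repeated, since all were below 5 on both MyLa arrays. Of these, 1 read 4.47 and 4.56 in MyLa and the remaining 3 lay below 4 on every array. A probe set of 6 H2A genes was 0.61 higher with IL-32γ in MyLa (7.71 and 8.32) and 0.21 higher in HH. A brighter probe set naming the same 6 genes did not repeat it, with -0.17 in MyLa (10.04 and 9.87) and -0.05 in HH. Of 3 probe sets of H2AC18 and H2AC19, a pair of H2A copies, 2 were 0.73 and 0.63 higher in MyLa and 0.09 and 0.22 higher in HH, and the third had 0.46 and 0.19, below 1.5-fold. A probe set of H2BC8 and H2BC11 was 0.59 higher in HH (7.14 and 7.74) with no difference of that size in MyLa (6.91 on both arrays). Another of the same genes had 0.52 in HH and -0.44 in MyLa. Lower values occurred too: the probe set of 10 H3 genes had -0.75 in MyLa and -0.52 in HH.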

How the results depend on the processing

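Between the lines the 14 calls of histone genes higher in HH became 7 of 16 genes tested on probe sets not marked as matching several transcripts, and 6 to 11 when 1 array was left out (6 without either HH array). No share over all genes was counted for the unmarked probe sets. The alternatives of floor (4, 6 or none), scaling (quantile, cyclic loess, median centring), intensity trend, treatment block, mean of probe sets, every probe set and fold minimum gave 12 to 21 calls, and no histone gene was called lower in HH under any of them. Of the MyLa differences with IL-32γ, 1 of the 6 higher genes reached 2-fold (H1-3). With every probe set counted 2 were lower in MyLa, 1 of MACROH2A1 and 1 of H2AZ2. In HH the 1 higher gene became 4 probe sets with every probe set counted (H1-3 and 3 of MACROH2A1), 2 without the shared probe sets and 0 at 2-fold, and with no floor 1 was lower (H4C5, at 3.20 and 2.15, below the floor). IL-32γ across the lines gave 0 calls in every alternative run. Of the differences of single genes, the sign turned in 2 that were not called: H2BC11, HH minus MyLa, from -0.06 to 0.096 with quantile normalization, and H1-3 from -0.57 to 0.0297 without the MyLa IL-32γ array (-1.17 to 0.0297 over the left-out arrays). Leaving out an array of the IL-32γ fit leaves 0 residual degrees of freedom and could not be fitted, and within a line there is no replicate to leave out. Arrays were paired by line in the IL-32γ fit and by treatment in the treatment block, which gave 14 calls, since the labels give no replicate numbers. Values below 5 carry no order.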
